A study of Mus musculus with 9 samples.

Results

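Messenger RNA levels of 10 genes associated with the stem cells at the base of the intestinal crypt were followed in mouse colon organoids: Lgr5, Ascl2, Lrig1, Prom1, Smoc2, Axin2, Rnf43, Sox9, Clca4b and Tert. They were found as the probes whose RefSeq accession maps to these symbols, which gave 13 of the 55681 probes on the array and 10 of its 20660 named genes. Lrig1, Prom1 and Axin2 had more than 1 probe, and the brightest probe by mean log2 signal stood for each gene. Of the 10 genes, 9 passed the filter on dim probes and were tested among 14033 genes. Smoc2 did not pass.

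Colon organoids are epithelial structures grown in culture from colon tissue. The labels give 3 groups of 3 samples each: untreated organoids at 0 weeks, organoids treated for 12 weeks, and organoids treated for 60 weeks, with agents described only as inflammatory and not named. Genotype, strain, age and sex of the donor mice are not stated in the labels used here. The labels do not say whether replicates came from separate animals or cultures, so p-values measure the spread between these samples, which may be technical. No untreated culture was sampled at 12 or 60 weeks, so effects of treatment and of culture time cannot be told apart. Each sample was hybridised to an Agilent single-colour array labelled with Cy3. Organoids are mixtures of epithelial cells in bulk, so fewer cells of a type and less RNA per cell cannot be told apart in any value given here.

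The crypt base columnar cells of the intestine divide under Wnt signals, which R-spondins amplify by binding Lgr receptors and withdrawing the ubiquitin ligases Rnf43 and Znrf3 from the Wnt receptors. Stabilised beta-catenin then acts through TCF/LEF factors on target genes such as Lgr5, Ascl2, Axin2, Rnf43 and Sox9, of which Axin2 and Rnf43 restrain the pathway in turn. Lrig1, which restrains ErbB signalling, also marks stem cells, and Smoc2 belongs to the signature of the Lgr5 cells. Clca4b, Prom1 and Tert have been used as stem or progenitor markers as well, though Prom1 is found beyond the stem cell compartment.

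The promoters of Ascl2, Clca4b and Tert are shown because these 3 genes were higher at 12 weeks than at 0 weeks and higher than at 60 weeks. Each sequence runs 5′ to 3′ on the gene's own strand, 250 bases before to 50 bases after the start of transcription, as given by RefSeq for GRCm38.p6.
Ascl2, chr7:142969215-142969514, minus strand: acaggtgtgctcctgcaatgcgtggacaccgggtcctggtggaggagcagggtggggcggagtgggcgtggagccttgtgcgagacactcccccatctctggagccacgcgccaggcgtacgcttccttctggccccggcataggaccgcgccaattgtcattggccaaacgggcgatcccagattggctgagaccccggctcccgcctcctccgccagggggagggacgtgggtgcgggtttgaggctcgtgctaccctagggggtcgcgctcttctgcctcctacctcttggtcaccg
Clca4b, chr3:144932480-144932779, minus strand: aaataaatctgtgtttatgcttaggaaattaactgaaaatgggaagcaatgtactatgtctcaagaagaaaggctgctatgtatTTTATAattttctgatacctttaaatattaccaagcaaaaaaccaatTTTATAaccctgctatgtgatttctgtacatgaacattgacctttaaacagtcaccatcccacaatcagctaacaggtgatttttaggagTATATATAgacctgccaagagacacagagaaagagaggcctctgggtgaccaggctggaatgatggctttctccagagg
Tert, chr13:73626661-73626960, plus strand: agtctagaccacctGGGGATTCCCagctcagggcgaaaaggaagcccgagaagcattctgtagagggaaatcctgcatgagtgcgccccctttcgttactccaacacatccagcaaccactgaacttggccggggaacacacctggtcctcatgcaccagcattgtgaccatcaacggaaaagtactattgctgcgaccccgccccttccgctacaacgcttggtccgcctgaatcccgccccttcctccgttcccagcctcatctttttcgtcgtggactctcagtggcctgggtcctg
Capitals in the Clca4b promoter mark TATA-box letters (TATA, then A or T, then A, on either strand), which had 4 matches there, 2 of them overlapping at 29 and 27 bases before the start. Capitals in the Tert promoter mark a match to the NF-kB consensus 236 bases before the start. These 3 promoters differ in base composition, with 67.0%, 37.0% and 57.3% G or C in Ascl2, Clca4b and Tert. Promoter entries were found for 7 of the 10 genes, 9 promoters in all. On either strand, none of the 9 held the TCF/LEF letters CTTTG followed by 2 letters that are each A or T, or the E-box CAGCTG, which were present in 16.9% and 16.3% of all 32851 promoters of this length. The NF-kB consensus was present in 8.5% of all promoters and the TATA-box letters, a motif chosen after the sequences had been seen, in 17.1%. A match in such a window is a description of its letters, and the absence of a match says nothing about binding elsewhere.

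The share of probes well above background ranged from 49.2% to 52.7% over the arrays, and no spot was saturated (0 on every array). Values are log2 signals relative to the 75th percentile of the probes on the same array, and a probe exactly at that percentile would have a value of 0. Of the 11 epithelial and colon identity markers, 10 were well above background on all 3 arrays of every group, the exception being Hoxb13. Well above background on all arrays of every group were 1 of 9 fibroblast markers (Col1a2) and 2 of 5 endothelial markers (Kdr and Pecam1). The same held for 4 of 8 immune markers (Cd14, Cd3e, Csf1r and Itgam). The summed linear signals of these lists, in multiples of each array's 75th percentile, ranged from 0.257 to 0.343 for fibroblast, 8.59 to 10.9 for endothelial and 31.3 to 37.5 for immune markers at 0 weeks. They ranged from 0.326 to 0.455, 6.84 to 8.92 and 50.4 to 68.3 at 12 weeks, and from 0.282 to 0.334, 8.15 to 11.3 and 51.1 to 59.3 at 60 weeks. Of the fibroblast list, Vim was well above background on 3 of 3 arrays at 12 weeks and on 0 at 60 or 0 weeks. It passed the filter only through its 12 weeks arrays. Vim was at least 4.73-fold higher at 12 weeks than at 0 weeks (adjusted p of the fitted change = 7.89e-06). Col1a1 went the other way, with 0 arrays at 12 weeks and 3 of 3 at 60 and at 0 weeks, at least 2.88-fold lower at 12 weeks than at 0 weeks (adjusted p = 0.000767), and the part of these markers in the results was not tested. Dcn, Lum, Pdgfra and Pdgfrb of the fibroblast list, Ptprc, Cd79a and Ms4a1 of the immune list, and Cdh5, Emcn and Tek of the endothelial list were not well above background on any array. Arrays of a group correlated at 0.994 to 0.996 at 0 weeks, 0.977 to 0.992 at 12 weeks and 0.990 to 0.994 at 60 weeks, and the median gene's SD was 0.11, 0.21 and 0.15 in that order of time. The slides carried 8 arrays and 1 array, and replicate 3 of 60 weeks was the lone array on its slide and in its scan. The 7 tested genes of the Y chromosome had a median log2 change of 1.21 at 12 weeks against 0 weeks. Their medians were -1.91 at 60 against 0 weeks and -3.26 at 60 against 12 weeks. Whether the cultures of the groups differ in donor or in Y chromosome content was not tested.

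The crypt stem cell genes did not move together. At 12 weeks against 0 weeks, Ascl2, Lrig1, Prom1, Clca4b and Tert rose and Lgr5 and Axin2 fell, 7 of the 9 tested genes at a Benjamini-Hochberg adjusted p under 0.05 in limma. Of all 14033 genes tested, 41.8% passed in that comparison, 19.1% as higher and 22.7% as lower. The median log2 change of the 9 genes was 0.55, against -0.06 for all genes tested. At 60 weeks against 0 weeks, 2 rose (Lrig1 and Prom1) and 0 fell, beside 32.8% of all genes, 16.7% higher and 16.1% lower. At an unadjusted p under 0.05, Axin2 fell as well, and the median of the 8 genes measured in at least 1 of the groups was 0.13, against -0.04 for all genes. At 60 weeks against 12 weeks, Lgr5 and Rnf43 rose and Ascl2, Clca4b and Tert fell, beside 38.3% of all genes, 20.7% higher and 17.6% lower, with medians of 0.14 for the 9 genes and 0.02 for all genes. Without replicate 1 or 3 of 0 weeks, 4 of the genes passed at 12 weeks against 0 weeks. limma's F test across the 3 groups passed for 7 of the 9 genes, all but Rnf43 and Sox9 (adjusted p = 0.0544 and 0.176), and for 56.7% of all genes. The arrays of the groups did not overlap for 8, 5 and 5 of the 9 genes in these comparisons in that order, against 54.6%, 56.5% and 47.3% of all genes. The comparisons of 60 and of 12 weeks with 0 weeks share their untreated arrays.

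**Figure D1:**
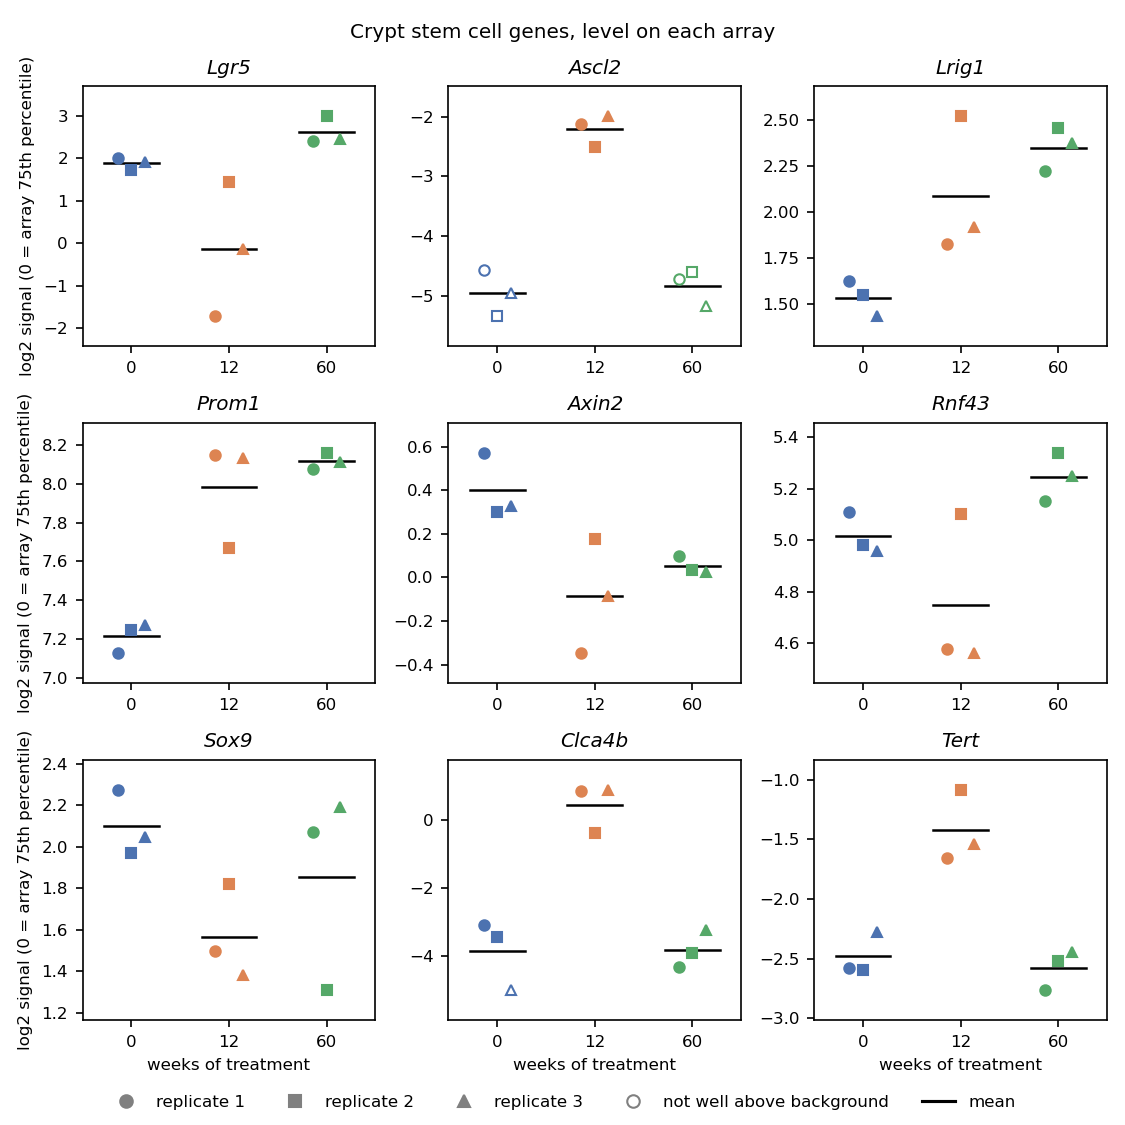
Level of each of the 9 tested genes on each array (vertical axis, log2 signal relative to the array's 75th percentile; horizontal axis, weeks of treatment). Marker shapes are replicates, open markers are values not well above background, and lines are group means. Ascl2, Clca4b and Tert are highest at 12 weeks, and Lgr5 ranges from -1.72 to 1.43 at 12 weeks.

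**Figure D2:**
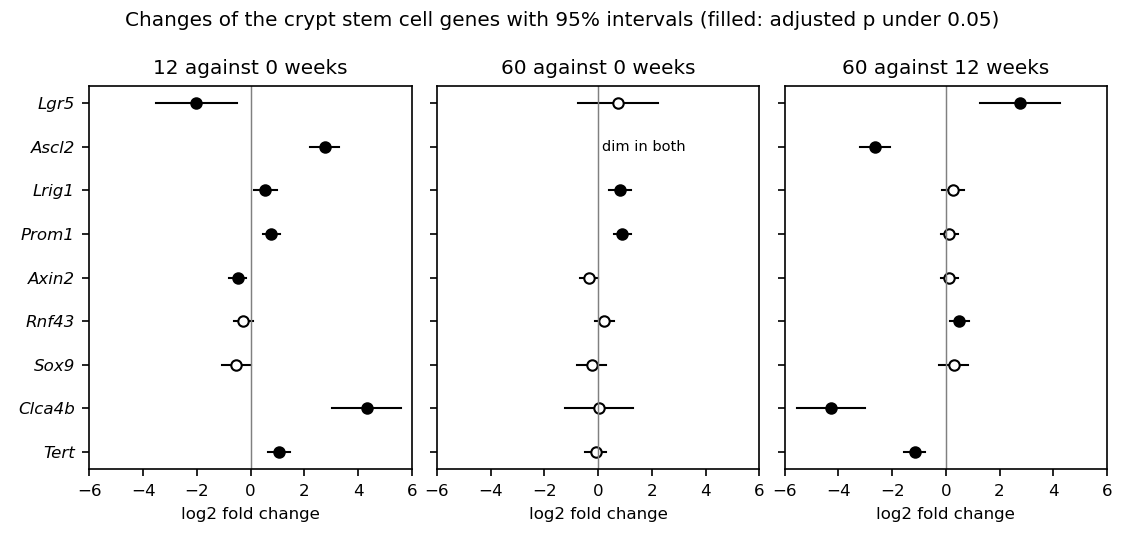
Log2 fold change (horizontal axis) of each gene in the 3 comparisons, with 95% intervals from limma. Filled points passed an adjusted p of 0.05; Ascl2 was not well above background at 60 or 0 weeks and has no fold change between them. Clca4b changes by 4.32 and -4.29 in the comparisons that involve 12 weeks and by 0.03 between 60 and 0 weeks.

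Lgr5, on chromosome 10, encodes an R-spondin receptor and is the defining marker of the cycling crypt base stem cell. Its log2 level was 2.003, 1.72 and 1.91 on the 0 weeks arrays, -1.72, 1.43 and -0.13 on the 12 weeks arrays, and 2.40, 2.99 and 2.46 on the 60 weeks arrays. All 12 weeks values lay below those at 0 weeks and all 60 weeks values above them, and the spread of the 12 weeks arrays (SD 1.58, n = 3) exceeded that of 98.9% of the tested genes. Lgr5 fell by 2.01 ± 0.65 (SE) on the log2 scale at 12 weeks against 0 weeks (adjusted p = 0.0372). It was 2.75 ± 0.65 higher at 60 weeks than at 12 weeks (adjusted p = 0.0121), a 6.74-fold difference that passed under all 20 alternatives with a test. Without replicate 1 or 2 of 12 weeks it was 1.96 and 3.54. At 60 weeks against 0 weeks the log2 difference was 0.74 (95% interval -0.76 to 2.23; adjusted p = 0.417), and it passed with only these groups fitted (adjusted p = 0.0172). The 12 weeks call ended under 11 of 20 alternatives with a test, among them leaving out replicate 1 or 3 of 12 weeks (-1.22 and -2.02; adjusted p = 0.0602 and 0.0834), or any array of 0 weeks (adjusted p = 0.0794 to 0.0926) or of 60 weeks (0.0509 to 0.0547), or fitting only the groups compared (0.0771), while leaving out replicate 2 of 12 weeks gave -2.80. Within the slide row that held replicate 1 of 12 weeks and the 0 weeks arrays the 12 against 0 weeks difference was -3.60. With the slide row as a block the 60 against 0 weeks value was -1.55. No 60 weeks array shared a slide row with a 0 weeks array. That value is therefore linked only through replicate 1 of 12 weeks, the array lowest in Lgr5. The 652 tested genes of chromosome 10 had a median log2 change of -0.08 for 12 weeks over 0 weeks, 0.28 for 60 over 0 and 0.34 for 60 over 12 weeks, and the part of this shift in the Lgr5 values was not tested. Of its relatives, the R-spondin receptor Lgr4 was lower at 60 weeks than at 12 weeks, by -0.35 ± 0.12 (adjusted p = 0.0447), a call that ended in 15 of 21 alternatives. Lgr6 was well above background on 2 of 3 arrays at 12 weeks and on 0 at 60 or at 0 weeks, and it passed in no comparison.

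Lrig1, on chromosome 6, encodes a transmembrane protein that lowers ErbB receptor levels, and marks stem cells that overlap in part with the Lgr5 population. Its log2 level was 1.62, 1.55 and 1.43 at 0 weeks, 1.82, 2.52 and 1.92 after 12 weeks, and 2.22, 2.45 and 2.37 after 60 weeks. Every treated array lay above every untreated one, and the 12 and 60 weeks arrays overlapped. The log2 change was 0.82 ± 0.18 at 60 weeks against 0 weeks (adjusted p = 0.00956), 0.55 ± 0.18 at 12 weeks against 0 weeks (adjusted p = 0.0373) and 0.26 at 60 weeks against 12 weeks (95% interval -0.15 to 0.67; adjusted p = 0.281). The other Lrig1 probe gave 0.85, 0.59 and 0.26. With slide rows fitted as a block the 2 increases shrank to 0.41 and 0.29 and neither passed (adjusted p = 0.464 and 0.396). In that fit replicate 1 of 12 weeks was the only treated array in a slide row with 0 weeks arrays. The 12 weeks call also ended without any array of 0 weeks (adjusted p = 0.0669 to 0.110) and without replicate 1 or 3 of 60 weeks (0.0526 for each), while without replicate 2 of 12 weeks the 60 against 12 weeks difference passed (0.48; adjusted p = 0.00716). Its paralogue Lrig3 averaged 1.92 at 0 weeks, 1.42 at 12 weeks and 3.25 at 60 weeks. It was 1.83 ± 0.18 higher at 60 weeks than at 12 weeks and 1.33 ± 0.18 higher than at 0 weeks (adjusted p = 0.000204 and 0.000906), and the call against 0 weeks ended in 1 of 21 alternatives, the slide row block.

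Axin2 and Rnf43, both on chromosome 11, are the negative feedback genes of the set. Axin2, a scaffold of the complex that degrades beta-catenin, had log2 levels of 0.57, 0.30 and 0.33 at 0 weeks, -0.35, 0.18 and -0.08 after 12 weeks, and 0.10, 0.03 and 0.02 after 60 weeks. On the brighter probe, which gave these values, all 6 treated arrays lay below the untreated ones. On the dimmer Axin2 probe the 60 and 0 weeks arrays overlapped. Axin2 fell by 0.48 ± 0.14 on the log2 scale at 12 weeks against 0 weeks (adjusted p = 0.0261). The differences were -0.35 at 60 weeks against 0 weeks (95% interval -0.67 to -0.02; adjusted p = 0.0960) and 0.14 at 60 weeks against 12 weeks (-0.19 to 0.46; adjusted p = 0.483). The other Axin2 probe gave -0.55, -0.28 and 0.27 in the same comparisons, none of which passed (adjusted p = 0.0896, 0.394 and 0.402). The 12 weeks call ended in 8 of 22 alternatives with a test, among them leaving out replicate 1 or 3 of 0 weeks (adjusted p = 0.0888 and 0.0533) or of 12 weeks (0.0737 and 0.0648). The 60 against 0 weeks difference passed when replicate 2 of 12 weeks was left out (adjusted p = 0.0346).

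Rnf43, the ubiquitin ligase that removes Wnt receptors from the cell surface, had log2 levels of 5.11, 4.98 and 4.96 at 0 weeks, 4.58, 5.10 and 4.56 after 12 weeks, and 5.15, 5.34 and 5.25 after 60 weeks. Replicate 2 of 12 weeks lay among the 0 weeks arrays and the other 12 weeks arrays below all of them. Rnf43 was 0.50 ± 0.15 higher at 60 weeks than at 12 weeks on the log2 scale (adjusted p = 0.0323). It differed by 0.23 at 60 weeks against 0 weeks (95% interval -0.12 to 0.58; adjusted p = 0.280) and by -0.27 at 12 weeks against 0 weeks (-0.62 to 0.08; adjusted p = 0.187). The call at 60 against 12 weeks ended in 12 of 21 alternatives with a test, among them quantile normalization (adjusted p = 0.0653), the row block (0.166), and leaving out replicate 1 or 3 of 12 weeks (0.102 and 0.109), replicate 2 or 3 of 0 weeks (0.0528 and 0.0501) or any array of 60 weeks (0.0611 to 0.0938). Without replicate 2 of 12 weeks, Rnf43 passed as lower at 12 weeks than at 0 weeks (-0.45; adjusted p = 0.00541). Znrf3, its partner ligase, fell by 0.71 ± 0.19 at 60 weeks against 0 weeks (adjusted p = 0.0243), a call that ended in 7 of 21 alternatives.

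Ascl2, on chromosome 7, is a transcription factor that sustains the crypt stem cell program. It was well above background on 3 of 3 arrays at 12 weeks and on none of the 3 at 60 or at 0 weeks. Its log2 level was -4.57, -5.35 and -4.96 at 0 weeks, -2.12, -2.50 and -1.99 after 12 weeks, and -4.73, -4.61 and -5.18 after 60 weeks. The 12 weeks arrays lay together and apart from all others. A gene that is not well above background in a group has only a bound there, taken on each array as the higher of the gene's own value and the lowest signal called well above background. Against this bound Ascl2 was at least 5.54-fold higher at 12 weeks than at 0 weeks and at least 5.73-fold lower at 60 weeks than at 12 weeks. Its log2 changes in limma, fitted to all signals including the dim ones, were 2.76 and -2.64 (adjusted p = 6.22e-05 and 0.000121). Wherever a bound is given, the adjusted p belongs to the fitted change and not to the bound. Ascl2 passed the filter on dim probes only through its 12 weeks arrays, where it was high. Its calls stood under all 20 alternatives with a test. The size depended on the background correction: with normexp the fitted changes were 0.999 and -1.03 on the log2 scale, smaller than these bounds, which hold for the scaling used here. Between 60 and 0 weeks no fold can be given. Sox9, a transcription factor of crypt progenitors and Paneth cells on chromosome 11, had log2 levels of 2.27, 1.97 and 2.05 at 0 weeks, 1.495, 1.82 and 1.38 after 12 weeks, and 2.07, 1.31 and 2.19 after 60 weeks. The 12 weeks arrays lay below the untreated ones, and replicate 2 of 60 weeks was lower than all other arrays. No Sox9 comparison passed: the log2 differences were -0.53 at 12 against 0 weeks (95% interval -1.07 to 0.00418; adjusted p = 0.100), -0.24 at 60 against 0 weeks (-0.78 to 0.29; adjusted p = 0.460) and 0.29 at 60 against 12 weeks (-0.25 to 0.83; adjusted p = 0.361). Without replicate 2 of 60 weeks the fall at 12 weeks against 0 weeks passed (adjusted p = 0.0231), as did a rise of 0.56 at 60 weeks against 12 weeks (adjusted p = 0.0382).

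Clca4b, on chromosome 3, belongs to the chloride channel accessory family and is in the set as a gene used as a stem or progenitor marker. Its log2 level was -3.11, -3.46 and -5.02 at 0 weeks, 0.86, -0.39 and 0.89 after 12 weeks, and -4.33, -3.93 and -3.25 after 60 weeks. The 12 weeks arrays lay far above all others, and the 60 and 0 weeks arrays overlapped. Replicate 3 of 0 weeks was not well above background, so that 2 of the 3 untreated arrays measured it. Clca4b was 4.32 ± 0.55 higher on the log2 scale at 12 weeks than at 0 weeks (19.9-fold, adjusted p = 0.000569). It was lower at 60 weeks than at 12 weeks by -4.29 ± 0.55 (adjusted p = 0.000829). At 60 weeks against 0 weeks the difference was 0.03 (95% interval -1.24 to 1.29; adjusted p = 0.975). Both calls stood under all 19 alternatives with a test, and with normexp the changes were 2.89 and -2.90. Leaving out replicate 3 of 0 weeks, the dim array, gave a smaller log2 change of 3.74 at 12 against 0 weeks.

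Clca4b lies in a cluster of Clca genes on chromosome 3, in the order Clca3a1, Clca3a2, Clca3b, Clca4b, Clca4a, Clca1 and Clca2. Its neighbour Clca4a averaged 1.58 at 12 weeks, against -0.87 at 0 weeks. That was a log2 change of 2.45 ± 0.42 (adjusted p = 0.00247), a gene named in this comparison after its values were seen. At 60 weeks Clca4a averaged -1.67, lower than at 12 weeks by -3.25 ± 0.42 (adjusted p = 0.000850) and by -0.80 than at 0 weeks (adjusted p = 0.182). Clca3a1 was 4.19 ± 0.24 higher at 60 weeks and 4.03 ± 0.24 higher at 12 weeks than at 0 weeks (adjusted p = 7.67e-06 and 8.10e-06), and Clca3a2 was 4.13 ± 0.34 and 4.18 ± 0.34 higher (adjusted p = 6.01e-05 and 4.84e-05). Clca3b, named after its values were seen, was 4.64 ± 0.38 and 4.80 ± 0.38 higher at 60 and 12 weeks than at 0 weeks, and the goblet cell gene Clca1 was 1.38 ± 0.24 and 1.78 ± 0.24 higher. At 60 weeks against 12 weeks, the changes of Clca3a1, Clca3a2, Clca3b and Clca1 were 0.16, -0.04, -0.17 and -0.40, and none passed (adjusted p = 0.618, 0.931, 0.759 and 0.216). Clca genes are close paralogues, and cross-hybridisation between their probes was not tested. The 40 tested genes nearest to Clca4b had median changes of 0.05 for 12 over 0 weeks, -0.12 for 60 over 0 weeks and -0.11 for 60 over 12 weeks.

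**Figure D3:**
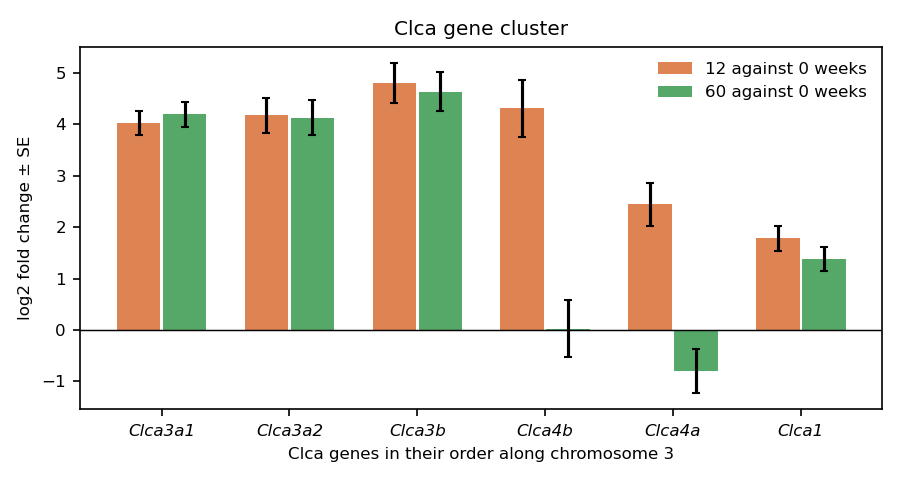
Log2 fold change with its SE (vertical axis) of the 6 tested Clca genes in their order along chromosome 3, at 12 and 60 weeks against 0 weeks. Clca3a1, Clca3a2, Clca3b and Clca1 are higher at both times, while Clca4b and Clca4a are higher at 12 weeks and stand at 0.03 and -0.80 at 60 weeks.

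Tert, on chromosome 13, encodes the catalytic subunit of telomerase and has been used to mark slowly cycling intestinal stem cells. Its log2 level was -2.58, -2.59 and -2.27 at 0 weeks, -1.65, -1.09 and -1.53 after 12 weeks, and -2.76, -2.52 and -2.45 after 60 weeks, well above background on all 9 arrays. Every 12 weeks array lay above every other array, and the 60 and 0 weeks arrays overlapped. Tert was 1.06 ± 0.17 higher at 12 weeks than at 0 weeks on the log2 scale (2.08-fold, adjusted p = 0.00190). It was lower at 60 weeks than at 12 weeks by -1.15 ± 0.17 (adjusted p = 0.00163), and at 60 weeks against 0 weeks the difference was -0.10 (95% interval -0.49 to 0.30; adjusted p = 0.700). Both calls stood under all 21 alternatives with a test. Of 13 other tested telomerase and shelterin genes, which assemble the enzyme or cap the telomere, 3 rose and 2 fell at 12 weeks against 0 weeks (median 0.09). At 60 weeks against 0 weeks 0 rose and 3 fell (median -0.15), and at 60 weeks against 12 weeks 2 rose and 5 fell (median -0.10). Of all tested genes, 41.8%, 32.8% and 38.3% passed in these comparisons in that order. Wrap53, which carries telomerase to Cajal bodies, and the helicase Rtel1 had Tert's direction, at 0.60 ± 0.09 and 0.48 ± 0.15 at 12 weeks against 0 weeks (adjusted p = 0.00106 and 0.0365) and -0.45 ± 0.09 and -0.99 ± 0.15 at 60 weeks against 12 weeks (adjusted p = 0.00487 and 0.00192). The Rtel1 call at 12 weeks ended in 6 of 21 alternatives. Unlike Tert, Rtel1 was also called lower at 60 weeks than at 0 weeks. That log2 change ranged from -0.65 to -0.41 over 21 alternatives, and the call ended in 7 of them. Dkc1 and Nop10, proteins of the telomerase particle that also modify other RNAs, fell by 0.96 ± 0.26 and 0.47 ± 0.13 at 60 weeks against 12 weeks (adjusted p = 0.0211 and 0.0233). The shelterin gene Acd fell by 1.03 ± 0.14 at 12 weeks and by 0.57 ± 0.14 at 60 weeks, each against 0 weeks (adjusted p = 0.000676 and 0.0133). At an unadjusted p under 0.05 in limma, 0 rose and 4 fell at 60 weeks against 0 weeks. The 60 against 12 weeks calls of Dkc1 and Nop10 ended in 4 of 20 and 3 of 21 alternatives, and the 60 against 0 weeks call of Acd ended without replicate 1 of 60 weeks. At 12 weeks against 0 weeks, 2 or 3 genes of the list passed without any array of 0 weeks, replicate 1 or 3 of 12 weeks or replicate 1 of 60 weeks. For 60 against 0 weeks, 1 passed without any array of 0 weeks and 0 without replicate 1 of 60 weeks. For 60 against 12 weeks, 3 or 4 passed without replicate 2 of 0 weeks, replicate 1 or 3 of 12 weeks, or replicate 1 or 2 of 60 weeks.

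Prom1, on chromosome 5, encodes the membrane protein CD133. Its log2 level was 7.13, 7.24 and 7.27 at 0 weeks, 8.15, 7.67 and 8.13 after 12 weeks, and 8.07, 8.16 and 8.11 after 60 weeks. All treated arrays lay above the untreated ones, and replicate 2 of 12 weeks was nearest to them. The log2 change was 0.90 ± 0.14 at 60 weeks and 0.77 ± 0.14 at 12 weeks, each against 0 weeks (adjusted p = 0.00158 and 0.00287), and both stood under all 22 alternatives with a test. At 60 weeks against 12 weeks it was 0.13 (95% interval -0.18 to 0.45; adjusted p = 0.476). A dimmer probe for another Prom1 transcript accession gave 1.01, 0.94 and 0.07. Chromosome 5 as a whole had medians of 0.11 and 0.17 at 60 and 12 weeks against 0 weeks. The related gene Prom2 changed the other way, by -3.11 ± 0.28 and -2.70 ± 0.28 at 60 and 12 weeks against 0 weeks (adjusted p = 0.000104 and 0.000193). Smoc2, on chromosome 17, encodes a secreted matrix protein of the Lgr5 signature. Its log2 signal lay between -7.22 and -6.65 on the 9 arrays and was well above background on 0 of them.

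The 12 weeks arrays did not form a uniform group for Lgr5 and Clca4b. The 12 weeks SD of Clca4b exceeded that of 92.4% of the tested genes, beside 98.9% for Lgr5. For the other tested genes of the set this share ran from 53.8% (Sox9) to 75.9% (Lrig1). Replicate 2 differed from the mean of replicates 1 and 3 by 2.36 in log2 for Lgr5, a signed deviation above that of 99.7% of the tested genes. For Clca4b it differed by -1.26, near the other extreme, since only 3.25% of the genes had a lower signed deviation. For Lrig1, Rnf43, Tert, Axin2 and Sox9 it differed by 0.65, 0.53, 0.51, 0.39 and 0.38. Prom1 and Ascl2 differed by -0.47 and -0.44. Some markers of mature colonocytes, Krt20 and Car1 among them, split the same arrays, while Emp1, Cdhr5 and Car4 had a 12 weeks SD of 0.14, 0.21 and 0.25. Krt20, a keratin of differentiated surface cells, had values of 2.35, 2.21 and 1.97 at 0 weeks, 4.70, 2.59 and 5.18 after 12 weeks, and 0.68, 1.05 and 0.88 after 60 weeks. Car1, a carbonic anhydrase of colonocytes, had values of 1.86, 2.13 and 0.11 at 0 weeks, 6.42, 2.37 and 7.40 after 12 weeks, and -1.58, -1.13 and -1.39 after 60 weeks. Replicate 2 of 12 weeks had the highest Lgr5 and the lowest Krt20 and Car1 of its group. With 3 arrays in the group this is a description. In limma's array weights this array had the lowest of the 9, 0.157. Mki67, a marker of dividing cells, had values of 4.66, 4.68 and 4.43 at 0 weeks, 4.32, 4.81 and 4.57 after 12 weeks, and 4.01, 4.52 and 4.32 after 60 weeks.

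**Figure D4:**
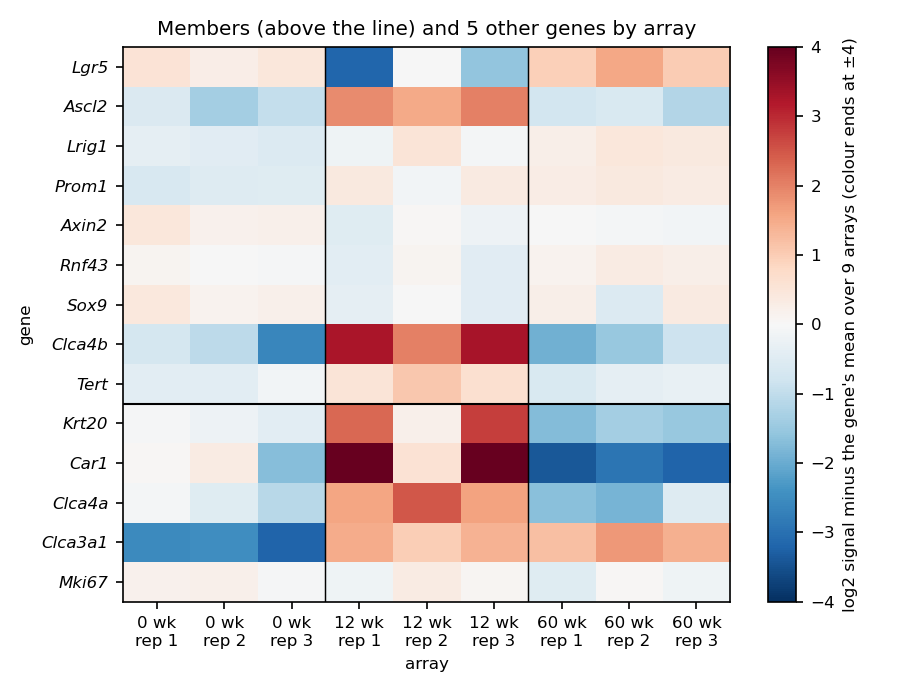
Log2 level minus the gene's mean over 9 arrays (colour, ending at ±4) for the 9 tested genes and 5 other genes (rows) on each array (columns). Replicate 2 of 12 weeks is paler than replicates 1 and 3 for Lgr5, Clca4b, Krt20 and Car1; Clca3a1 is high at 12 and 60 weeks.

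Of 11 tested mature colonocyte markers, 8 rose and 1 fell at 12 weeks against 0 weeks (median 2.44). At 60 weeks against 0 weeks 2 rose and 1 fell (median -0.49, or -0.20 with dim genes at their bound). At 60 weeks against 12 weeks 0 rose and 8 fell (median -3.29). The shares of all tested genes that passed were 41.8%, 32.8% and 38.3% in that order. At 60 against 12 weeks, 0 rose and 8 fell at an unadjusted p under 0.05 in limma as well. Without replicate 2 of 12 weeks, 2 rose and 4 fell at 60 weeks against 0 weeks. The butyrate transporter Slc5a8 was at least 64.0-fold higher at 12 weeks than at 0 weeks and at least 63.0-fold lower at 60 weeks than at 12 weeks (adjusted p = 3.90e-05 and 4.83e-05). Guca2b, which encodes uroguanylin, was at least 13.4-fold higher and at least 13.2-fold lower in the same comparisons (adjusted p = 0.000977 and 0.00106). With normexp the fitted log2 changes were smaller than these bounds, at 4.16 and -4.16 for Slc5a8 and 2.28 and -2.33 for Guca2b. Slc5a8 and Guca2b were well above background at 12 weeks only and passed the filter through that group. The list's summed linear signal ranged from 336 to 382 times the array's 75th percentile at 0 weeks, from 261 to 475 at 12 weeks and from 172 to 182 at 60 weeks. These markers moved in the same comparisons as Ascl2, Clca4b and Tert, and their part in those changes was not tested.

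Other genes of intestinal stem cell signatures gave a mixed picture. Of 25 tested, 6 rose and 1 fell at 12 weeks against 0 weeks (median 0.18). At 60 weeks against 0 weeks 5 rose and 3 fell (median 0.05), and at 60 weeks against 12 weeks 2 rose and 3 fell (median -0.10). These counts stood beside 41.8%, 32.8% and 38.3% of all tested genes called in the same order. Without replicate 2 of 12 weeks, 8 rose and 3 fell at 12 weeks against 0 weeks and 5 rose and 6 fell at 60 weeks against 12 weeks. Sp5, a transcription factor induced by Wnt and dim on the untreated arrays, was at least 37.6-fold higher at 12 weeks and at least 12.9-fold higher at 60 weeks than at 0 weeks (adjusted p = 2.40e-06 and 9.09e-06). With normexp its fitted log2 changes were 3.605 and 2.25, smaller than these bounds. Pdgfa, a growth factor, was 1.96 ± 0.12 higher at 60 weeks and 0.86 ± 0.12 higher at 12 weeks than at 0 weeks on the log2 scale (adjusted p = 1.43e-05 and 0.00106). Sectm1b was 2.77 ± 0.18 higher at 60 weeks than at 12 weeks (adjusted p = 1.82e-05). The water channel Aqp1 and the serine synthesis enzyme Phgdh were lower at 60 weeks than at 12 weeks, by -4.01 ± 0.68 and -1.14 ± 0.15 (adjusted p = 0.00282 and 0.000801). Olfm4, a stem cell marker of the human and small intestinal crypt, was not among the named and tested genes.

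Wnt target and feedback genes outside the set stood beside 41.8%, 32.8% and 38.3% of all genes called at 12 against 0, 60 against 0 and 60 against 12 weeks. Of 16 tested, 1 rose and 3 fell at 12 weeks against 0 weeks (median -0.29), 1 rose and 5 fell at 60 weeks against 0 weeks (median -0.35), and 2 rose and 3 fell at 60 weeks against 12 weeks (median -0.06). The gene that rose against 0 weeks was Sp5 at both times. Cldn2, a tight junction protein of the crypt base, fell by 3.01 ± 0.41 at 12 weeks and by 6.06 ± 0.41 at 60 weeks, each against 0 weeks on the log2 scale (adjusted p = 0.000742 and 1.86e-05), with 2 of 3 arrays well above background at 60 weeks. The TCF/LEF factor Tcf7 and the Wnt-inactivating enzyme Notum fell by 1.16 ± 0.18 and 0.87 ± 0.21 at 12 weeks against 0 weeks (adjusted p = 0.00172 and 0.0114). Cyclin D1 (Ccnd1) fell by 0.83 ± 0.10 at 60 weeks against 0 weeks (adjusted p = 0.000533). The 12 weeks count was 8 rather than 4 genes without replicate 2 of 12 weeks, 3 rising and 5 falling. The 60 against 0 weeks count was 3 rather than 6 without replicate 1 or 2 of 0 weeks or replicate 1 or 3 of 60 weeks, and the 60 against 12 weeks count was 3 rather than 5 without replicate 3 of 12 weeks or replicate 1 of 60 weeks. Of 10 proliferation markers, 0 rose and 4 fell at 60 weeks against 0 weeks (median -0.50), among them the replication genes Mcm2, by 1.53 ± 0.14, and Pcna, by 1.08 ± 0.13 (adjusted p = 0.000125 and 0.000397). At 12 weeks against 0 weeks 0 rose and 1 fell, which was Mcm2, while 4 fell without replicate 2 of 12 weeks. At 60 weeks against 12 weeks 0 of these markers rose and 4 fell (median -0.30), and 4 to 5 were called under the 21 alternatives. At an unadjusted p under 0.05 in limma, 0 rose and 6 fell at 60 weeks and 0 rose and 2 fell at 12 weeks, each against 0 weeks.

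**Figure D5:**
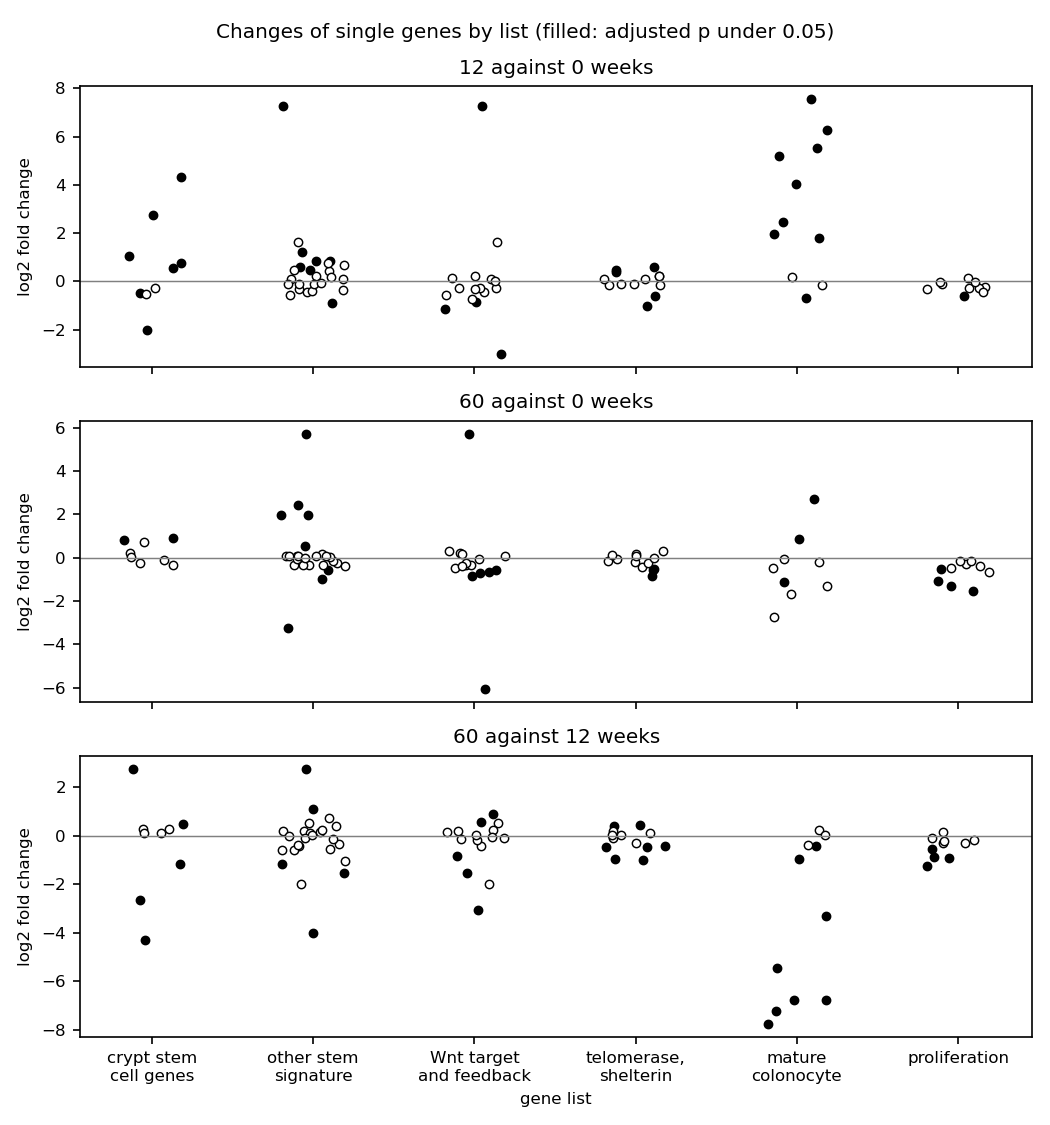
Log2 fold change (vertical axis) of single genes in 6 lists (horizontal axis) for the 3 comparisons; filled points passed an adjusted p of 0.05, and genes not well above background in either group are left out. Sp5 stands in both the other stem signature and the Wnt list, and dim genes are drawn at their fitted change rather than their bound. The colonocyte markers rise at 12 weeks and fall at 60 weeks against 12 weeks, with 8 of 11 genes passing each way.

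Genes with the most similar course over the 9 arrays were named by the root mean square difference of mean-centred log2 levels. For Lgr5, whose own SD over the arrays was 1.48, they were Tmem191c, Grin1 and Ocm (0.34, 0.36 and 0.41). For Clca4b, with an SD of 2.26, they were Steap4, Upk1b and Pde3b (0.58, 0.58 and 0.62). For Ascl2, with an SD of 1.38, they were Tceal8, Kcns3 and Zfp287 (0.22, 0.23 and 0.26), and for Tert, with an SD of 0.59, Brip1, Aacs and Qpctl (0.16, 0.16 and 0.18). The nearest genes were Tmem63b, Pgpep1 and Abca3 for Lrig1 (0.11, 0.12 and 0.12) and Hif1a, Ifngr1 and Ccar2 for Prom1 (0.07, 0.10 and 0.10). They were Prr15l, Tmx4 and Rtkn for Axin2 (0.07, 0.08 and 0.08), Kazn, Nucb1 and Ly6e for Rnf43 (0.05, 0.06 and 0.06), and Swsap1, Zfp955b and Zfp599 for Sox9 (0.12, 0.13 and 0.14). All these values are likenesses over the same 9 arrays.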

How the data were processed

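Total RNA of 9 samples of mouse colon organoids was hybridised to Agilent single-colour arrays. Per the file headers, the authors quantified them with Agilent Feature Extraction 10.7.3.1 (protocol GE1_107_Sep09, design build mm9:NCBI37:Jul2007). The scanner output deposited by the authors gives an intensity per spot, already background-subtracted and detrended and not yet comparable between arrays. The deposited table of values has a signal per probe, divided by 1 constant per array near its 75th percentile, on a linear scale with no centring, as found by setting it against the intensities. It was used as an alternative only.

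Spots called non-uniform or population outliers (117 to 163 of 59305 per array) were left out and replicate spots averaged. Each array was scaled to its 75th percentile over non-control probes before log2 was taken. A probe passed if some group had it well above background on 2 or more of its 3 arrays. Probe accessions were named through RefSeq (GRCm38.p6), which gave a symbol for 27235 of 55681 probes. Group means over all 9 arrays were fitted in limma 3.58.1 (R 4.3.3), two-sided, with Benjamini-Hochberg adjustment over all 14033 tested genes. In simulated data the fit recovered 17.9%, 8.96% and 11.9% of genes given a log2 change of 0.5. The order is 12 against 0, 60 against 0 and 60 against 12 weeks. For a log2 change of 1 it recovered 50.7%, 71.6% and 61.2%. Most differences near 0.5 would thus go uncalled. The normexp alternative (offset 50) used median spot signals, since the files used here hold no mean signal column. The genes and lists were chosen with earlier results of these data known. Named are the 10 genes, their 3 nearest genes each, up to 4 genes of a list per comparison in order of adjusted p, and a panel of Krt20, Car1, Mki67, Myc and Olfm4; Myc averaged 3.39 at 0, 3.62 at 12 and 3.59 at 60 weeks and passed in no comparison. With 3 arrays per group, their number limits the precision. Alternatives were other scalings, filters, sources, blocks, array weights and leaving out each array.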

Additional observations from a re-analysis of the deposited data

How the results depend on the processing

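The precision is limited by 3 arrays per group, and genes near background, such as Ascl2 and Clca4b at 0 and 60 weeks, carry little information on change there. The number of crypt stem cell genes called was 7, 2 and 5 at 12 against 0, 60 against 0 and 60 against 12 weeks, and 7 in the F test. With the deposited value table, which holds 7 of the 9 genes, it was 4 at 12 against 0 weeks, 3 at 60 against 12 weeks and 4 in the F test. It was 1 at 60 against 0 weeks with slide rows as a block and 4 with only the groups compared, and 3 at 60 against 12 weeks with probes above background on all 9 arrays, which leaves 7 of the 9 genes. Leaving out each array in turn gave 4 to 8, 2 to 3 and 4 to 6 genes, and 5 to 8 in the F test. With array weights 9, 3 and 7 genes were called and 9 in the F test, Rnf43 and Sox9 among them except at 60 against 0 weeks. Where a group keeps 2 arrays, the shared spread comes from all groups.

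The labels do not say whether replicate numbers pair the samples. Deviations of same-numbered arrays correlated at -0.08 to 0.20, and those of other arrays from different groups at -0.24 to 0.16. With 3 arrays per group these values do not settle whether the samples were paired. With the replicate block 6, 2 and 5 genes were called and 6 in the F test, and the Axin2 call at 12 against 0 weeks ended (-0.48; adjusted p = 0.0507).

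Some differences that passed no test changed sign. At 60 against 0 weeks Clca4b lay at -0.013 with normexp, -0.37 with array weights, -0.27 with the slide block or without replicate 3 of 60 weeks, which is the same fit, and between -0.55 (without replicate 3 of 0 weeks) and 0.41 when arrays were left out in turn. With the row block, in which no 60 weeks array shares a row with a 0 weeks array, Lgr5 lay at -1.55 and Rnf43 at -0.025. Leaving out arrays in turn, Sox9 ranged from -0.41 to 0.032 (without replicate 2 of 60 weeks) and Tert from -0.16 to 0.0071 (without replicate 3 of 0 weeks). At 60 against 12 weeks Prom1 lay at -0.21 with quantile normalization, -0.25 with normexp, -0.018 with array weights and from -0.024 (without replicate 2 of 12 weeks) to 0.22 when arrays were left out. Fzd7, which rose at 12 against 0 weeks, lay at -0.25 in the deposited value table. The cause was not tested. With normexp the fold was smaller by over 1.5 times for 28 of 100 called changes of the genes named in the text, genes near background among them, and all 28 still passed. Of 544 tested values of the single crypt stem cell genes under alternatives, 477 kept their direction and side of the threshold.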

Other observations

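Epithelial genes outside the stem cell lists also separated the groups. Muc13, a membrane mucin, was 3.96 ± 0.20 higher at 60 weeks and 3.85 ± 0.20 higher at 12 weeks than at 0 weeks on the log2 scale (adjusted p = 4.73e-06 and 4.67e-06). Fcgbp, a mucus protein of goblet cells, was 2.95 ± 0.68 and 3.65 ± 0.68 higher in the same comparisons (adjusted p = 0.0120 and 0.00364), and 4.56 higher at 12 weeks without replicate 2 of 12 weeks. Of 6 tested goblet, enteroendocrine and tuft cell markers, 3 rose and 1 fell in each, beside 32.8% and 41.8% of all tested genes called. The tuft cell gene Dclk1 was the one that fell, by 1.05 ± 0.15 and 0.97 ± 0.15. Gata4, a transcription factor of the proximal intestine, was 5.84 ± 0.20 higher at 60 weeks and 2.44 ± 0.20 higher at 12 weeks than at 0 weeks (adjusted p = 5.72e-07 and 5.01e-05), with 1 of 3 untreated arrays well above background, and 3.78 and 0.98 higher with normexp. Hnf4a, a factor of enterocyte differentiation, was 1.31 ± 0.11 higher at 12 weeks than at 0 weeks and fell by 1.37 ± 0.11 at 60 weeks against 12 weeks (adjusted p = 5.18e-05 and 6.10e-05).

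Counts in this paragraph stand beside 41.8% of all tested genes called at 12 weeks and 32.8% at 60 weeks, each against 0 weeks. Among 11 fetal-like regenerative markers, 2 rose and 3 fell at 12 weeks against 0 weeks and 3 rose and 3 fell at 60 weeks against 0 weeks. The 60 weeks count of 6 was 2 or 3 without any 1 array of 60 or 0 weeks, with 0 rising, and 1 with the slide row block. The secreted phosphoprotein Spp1 fell by 6.33 ± 0.55 at 60 weeks and by 5.10 ± 0.55 at 12 weeks, each against 0 weeks (adjusted p = 8.34e-05 and 0.000231). The ErbB ligand Ereg was 1.71 ± 0.27 higher at 12 weeks than at 0 weeks (adjusted p = 0.00166). Of 14 genes of the beta-catenin destruction complex and its transcription partners, 1 rose and 2 fell at 12 weeks and 2 rose and 2 fell at 60 weeks, each against 0 weeks. The 60 weeks count of 4 ranged from 0 to 8 over 21 alternatives and moved by over 1.5 times in 11 of them, to 0 to 2 without any 1 array of 60 or 0 weeks. The 12 weeks count was 5 without replicate 2 of 12 weeks. Ctnnb1, which encodes beta-catenin, was 0.61 ± 0.09 higher at 12 weeks than at 0 weeks (adjusted p = 0.00147). Tcf7l2, its main partner in the intestine, was 0.90 ± 0.22 higher at 60 weeks than at 0 weeks (adjusted p = 0.0166). Of 7 receptor genes for R-spondins and Wnts, 1 rose (Fzd7, by 0.69 ± 0.21) and 1 fell (Lrp5, by 0.55 ± 0.16) at 12 weeks against 0 weeks (adjusted p = 0.0300 and 0.0273), calls that ended in 8 and 6 of 21 alternatives, apart from the sign change of Fzd7 in the deposited value table.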
